A study of Homo sapiens with 24 samples.

Results

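LNCaP cells carrying a non-targeting hairpin were treated for 24 h with 1 nM dihydrotestosterone (DHT) plus 10 µM enzalutamide or with DHT alone, and their transcriptomes were compared over all expressed genes. The comparison used 6 of the 24 RNA sequencing libraries of the series, chosen by sample title: 3 with DHT plus enzalutamide and 3 with DHT. LNCaP is a hormone-sensitive human prostate cancer cell line. All cells described here carried a lentiviral short hairpin, delivered at a multiplicity of infection of 10 and selected with 1 µg/ml puromycin, and were then maintained as stable lines in 0.5 µg/ml puromycin. The hairpin was the non-targeting (scrambled) one, abbreviated NTC, except in a SIRT1 knockdown line named 10. Before treatment all of them grew for 48 h with fetal bovine serum and then for 24 h with serum stripped on charcoal, which removes most androgens. A vehicle group of 3 NTC libraries in stripped serum gives the level without added androgen, and 6 libraries of the knockdown line had the same DHT and DHT plus enzalutamide treatments. The labels speak of stable clones without saying how many each line holds, and they do not say whether libraries of a group came from separate cultures, so p-values measure the spread between these libraries only, which may be technical.

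The androgen receptor is a nuclear receptor that moves to the nucleus and binds DNA when it is bound by DHT. In prostate epithelial cells it drives genes of secretion, lipid synthesis and, in cancer, proliferation, and it lowers the expression of another set of genes. Enzalutamide is an antiandrogen that competes for the ligand-binding domain of the receptor and impairs its nuclear entry, DNA binding and coactivator recruitment. The comparison asks which genes change when the receptor is blocked while DHT is present.

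Levels are given as counts scaled to a library total of 1000000 (CPM), in the order of libraries 1, 2 and 3 of each group, with n = 3 throughout. Total counts per library were 27981008 to 32313620 with vehicle, 28972208 to 32952607 with DHT and 27797806 to 35108310 with DHT plus enzalutamide. Of 23207 genes in the files, 14558 passed a filter on low counts and were tested. A gene was called changed at an adjusted p under 0.05 (edgeR quasi-likelihood F test, Benjamini-Hochberg adjustment over all 14558 genes). In each NTC group library 1 lay farther from the other two, with a chi-square per gene of 9.78 to 14 against them and of 3.79 to 4.34 between libraries 2 and 3. The labelled cell type was borne out by its markers: all 14 luminal prostate markers were expressed, with summed levels of 3288 to 3569 TPM (transcript levels corrected for length, as deposited) in the 9 NTC libraries. Basal markers summed to 1.03 to 1.57 TPM, with TP63 at 0 in every library, and markers of fibroblasts and smooth muscle summed to 9.46 to 14.3 TPM, with COL1A2 and DCN at 0. Markers of leukocytes and endothelium summed to 8.32 to 10.2 TPM, with CD3E and CDH5 at 0.

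Enzalutamide changed 4252 of the 14558 genes (29.2%): 1829 were higher (12.6%) and 2423 were lower (16.6%) than with DHT alone. This fit took no account of the replicate numbers. A fit blocked on replicate number called more genes, 6140 (2885 higher and 3255 lower), so a gene that did not pass below may pass there. The lower genes included the kallikreins KLK3 and KLK2, genes of cholesterol and fatty acid synthesis, and nearly every gene on the G1/S (DNA replication) and G2/M (mitosis) lists. The higher genes included CAMK2N1, DDC and FOXO3 and were changed less. Among the genes called, the median fold change was 1.27 for higher genes and 1.31 for lower genes. Of the called genes, 378 were at least 1.5-fold higher (2.6% of all genes) and 769 at least 1.5-fold lower (5.28%). At least 2-fold changes were found for 128 higher genes (0.879%) and 433 lower genes (2.97%), and at least 4-fold changes for 9 higher (0.0618%) and 112 lower genes (0.769%). The balance between higher and lower calls depended on scaling: with upper-quartile factors 2707 genes were higher and 1991 lower, and the median log2 fold change of all genes was 0.0579 instead of 0.0079.

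**Figure D1:**
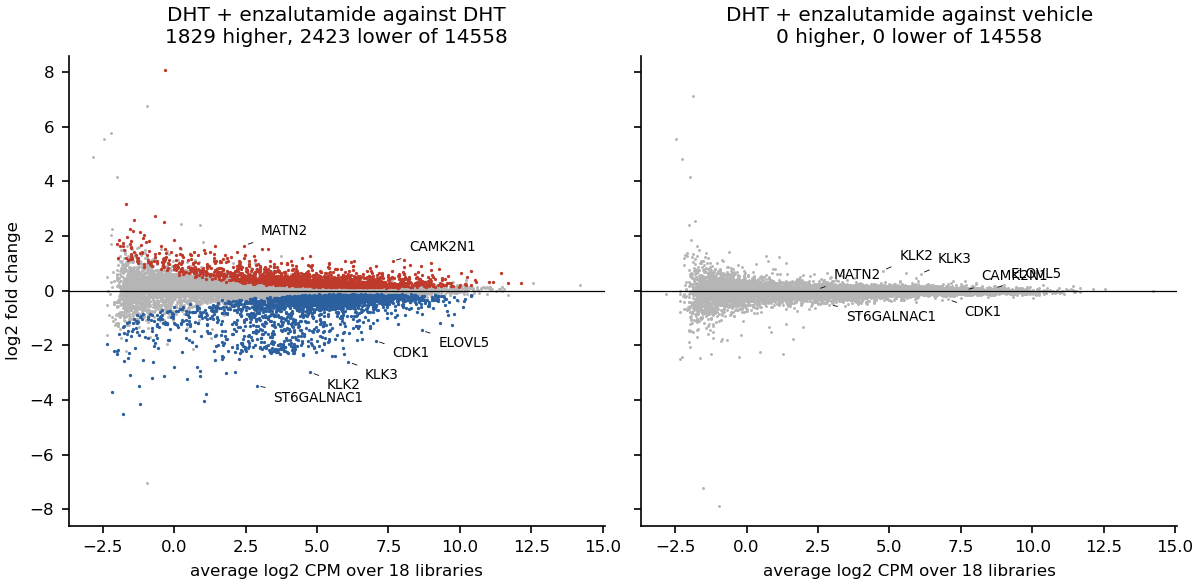
Log2 fold change of each of the 14558 tested genes (y axis) against its average log2 CPM over 18 libraries (x axis), for DHT plus enzalutamide against DHT (left) and against vehicle (right). Each point is a gene, and red and blue points are genes called higher and lower. In the left panel 1829 genes are higher and 2423 lower, with the lower genes spread down to larger changes, while no point in the right panel is called.

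The androgen-induced genes, a list of known targets that DHT raises in prostate cells, were lower as a group. Of 94 tested members, 69 fell, 4 rose and 21 did not pass, with a median log2 fold change of -0.69, and in the fit blocked on replicate number 70 fell and 7 rose. Among all genes, by comparison, 16.6% were lower, 12.6% were higher and the median was 0.0079. The group was summed over its members in each library. It stood at 18352, 16390.2 and 16434 CPM with DHT and at 12767, 12229 and 12522 CPM with DHT plus enzalutamide, so the groups did not overlap, and at 12375, 11983 and 12221 CPM with vehicle.

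KLK3 encodes prostate-specific antigen, a secreted protease used as a blood marker of prostate cancer. Its level was 248, 211 and 239 CPM with DHT and 30.5, 41.9 and 44.4 CPM with DHT plus enzalutamide, a 6.06-fold fall (log2 fold change -2.60, SE 0.14, adjusted p = 8.94e-10). All enzalutamide libraries lay far below the DHT libraries. Over all genes the groups did not overlap for 47% (23.7% with the enzalutamide libraries higher and 23.3% with them lower). For KLK3 the vehicle libraries were at 23.9, 23.7 and 27.8 CPM. KLK2, a neighbouring kallikrein that processes prostate-specific antigen, went from 106, 77.1 and 78.8 CPM to 10, 12.1 and 11.7 CPM, a 7.88-fold fall (log2 fold change -2.98, SE 0.18, adjusted p = 2.88e-09). KLK4, a kallikrein of the same cluster, went from 107, 95.1 and 105 CPM to 34, 37.2 and 37.2 CPM, a 2.87-fold fall (log2 fold change -1.52, SE 0.10, adjusted p = 6.03e-09). KLK2, KLK3 and the pseudogene KLKP1 are similar in sequence, so reads may have been divided among them by the authors' counting, and 32.7 to 35.4% of the deposited values of an NTC library were not whole numbers.

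The proximal promoter of KLK3 is shown because this gene is the best known androgen target and fell strongly here. It comes from the RefSeq table for GRCh38.p14, chr19:50854715-50854914 on the plus strand, the 200 bases before the start. The match to AGAACA, a half-site of the androgen response element, is in capitals and begins 170 bases before the start.
KLK3: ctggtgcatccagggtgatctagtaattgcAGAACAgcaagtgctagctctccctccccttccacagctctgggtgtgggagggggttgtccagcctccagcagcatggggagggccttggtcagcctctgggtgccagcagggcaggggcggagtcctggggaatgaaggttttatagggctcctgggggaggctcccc
Across the promoter windows in that table, which run from 250 bases before to 50 after each start, AGAACA on either strand was present in 14.8% of 35116 windows. It was present in 10.2% of the windows of tested genes and in 9.45% of the 127 windows of the 72 androgen-induced genes that matched by symbol. These short windows do not hold distal enhancers, and a match is a description of the letters only.

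Other genes of the androgen-induced list fell along with the kallikreins. FKBP5, which encodes a co-chaperone of steroid receptors, had 109, 95 and 102 CPM with DHT and 50, 54 and 52.8 CPM with enzalutamide, a 1.98-fold fall (log2 fold change -0.98, SE 0.11, adjusted p = 3.23e-06). TMPRSS2, the serine protease gene that is often fused to ETS factors in prostate cancer, had 129, 96 and 92.5 CPM and 54.7, 55.1 and 56 CPM, a 1.95-fold fall (log2 fold change -0.96, SE 0.12, adjusted p = 1.09e-05). In both genes every enzalutamide library was below every DHT library. SLC45A3, which encodes the membrane protein prostein, fell 2.28-fold, and TRPM8, which encodes a cation channel opened by cold, fell 8.71-fold (log2 fold change -3.12, adjusted p = 4.7e-07).

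The 12 largest falls, taken among called genes whose log2 CPM averaged 1 or more and whose groups did not overlap, mixed androgen targets with proliferation genes. TUBA3D, an alpha-tubulin gene, went from 5.77, 3.99 and 3.73 CPM to 0.0854, 0.540 and 0.257 CPM, a 16.2-fold fall (log2 fold change -4.02, SE 0.37, adjusted p = 2.11e-07), and its reads may be shared with TUBA3E. CHRNA2, a nicotinic acetylcholine receptor subunit gene, went from 8.65, 4.64 and 5.76 CPM to 0.399, 0.468 and 0.542 CPM, a 13.7-fold fall (log2 fold change -3.77, SE 0.30, adjusted p = 2.58e-08). ST6GALNAC1, the sialyltransferase gene that makes the sialyl-Tn antigen, went from 19.3, 18.7 and 17.7 CPM to 1.54, 1.55 and 1.97 CPM, an 11.1-fold fall (log2 fold change -3.47, SE 0.17, adjusted p = 8.83e-10). Each of these genes was low in all enzalutamide and all vehicle libraries. F5, which encodes coagulation factor V, fell 7.97-fold from 12.2 ± 0.914 to 1.54 ± 0.0485 CPM (mean ± SD, n = 3). The others were KLK2, KLK3, ALPK2 (-2.97), CTNNA2 (-2.54), SERPIND1 (-2.49), KIF18B (-2.48), NEIL3 (-2.41) and TM4SF1 (-2.40), all as log2 fold changes.

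A few genes of the androgen-induced list were higher with enzalutamide. KIF5B, which encodes a kinesin heavy chain, went from 562, 575 and 552 CPM to 879, 788 and 824 CPM (log2 fold change 0.54, SE 0.08, adjusted p = 3.81e-05). STEAP2, a metalloreductase gene, had 1276, 1176 and 1177 CPM with DHT and 1793, 1454 and 1529 CPM with enzalutamide (log2 fold change 0.38, adjusted p = 0.0233), and LIFR and SLC38A2 had log2 fold changes of 0.27 and 0.17. In these 4 genes the DHT libraries were all below the enzalutamide libraries, and below all vehicle libraries. KIF5B kept its call without any 1 library, whereas the calls of the other 3 were lost without at least 1 library (STEAP2 0.38 and then 0.28 to 0.36, LIFR 0.22 to 0.24, SLC38A2 0.13 to 0.17 on the log2 scale). NDRG1, another gene of the list, had 100.3, 117 and 109.6 CPM with DHT and 87.6, 121 and 105 CPM with enzalutamide, groups that overlapped (log2 fold change -0.07, adjusted p = 0.651).

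**Figure D2:**
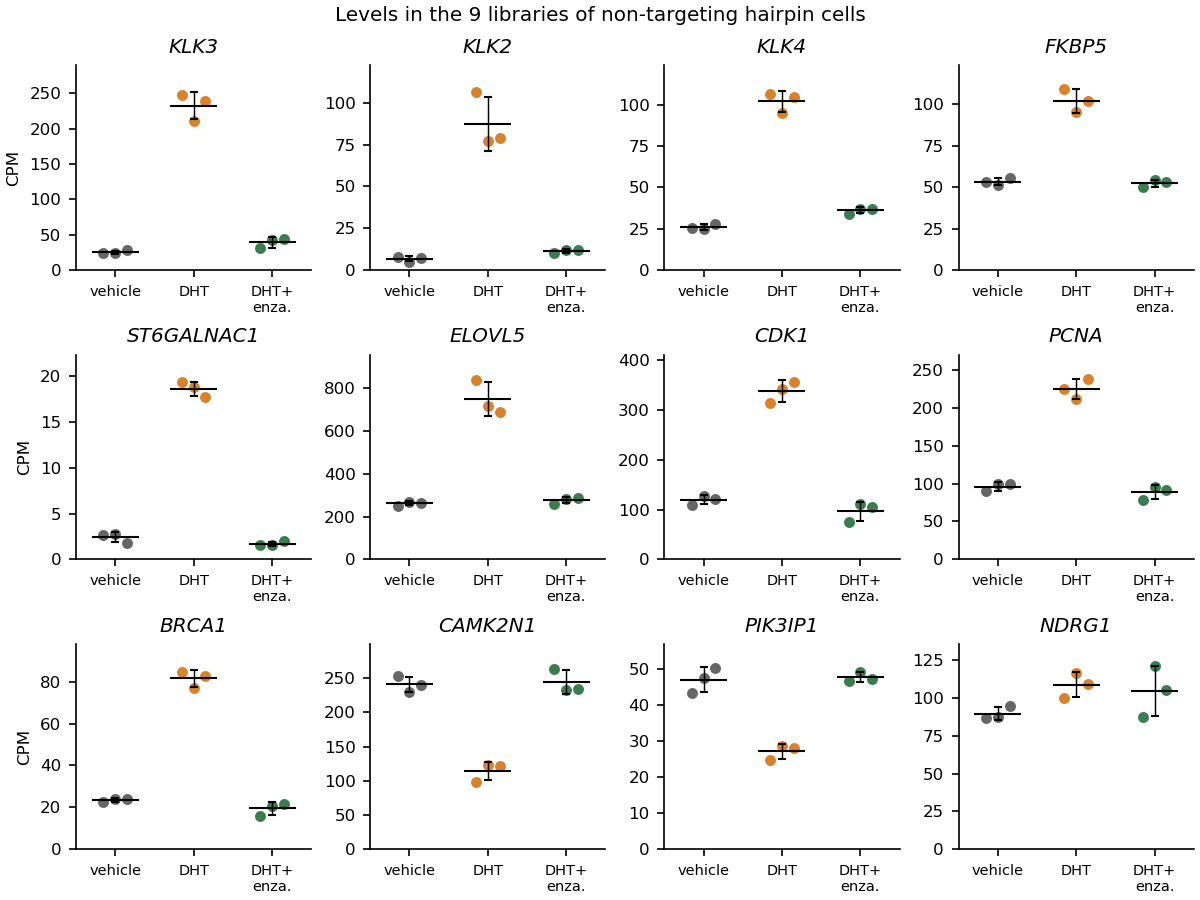
Level in CPM (y axis, from 0) of 12 genes in the 9 NTC libraries, grouped by treatment (x axis: vehicle, DHT, DHT plus enzalutamide). Each point is a library, horizontal lines are means and bars are ± 1 SD (n = 3). KLK3 sits at 211 to 248 CPM with DHT and at 30.5 to 44.4 CPM with enzalutamide, CAMK2N1 shows the opposite order, and the NDRG1 groups overlap between DHT and enzalutamide.

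Of 23 genes on the list of prostate lineage factors 4 rose, 5 fell and 14 did not pass, shares near those over all genes (12.6% higher and 16.6% lower). FOXA1, which encodes the pioneer factor that opens chromatin for the receptor, went from 329, 360.2 and 355 CPM to 418, 425 and 426 CPM (log2 fold change 0.26, SE 0.05, adjusted p = 0.000273). TRPS1, a GATA-type repressor gene, went from 51.2, 58.6 and 59.2 CPM to 83.6, 83.7 and 88.8 CPM (log2 fold change 0.58, SE 0.06, adjusted p = 2.85e-07), and SOX9 went from 3.43, 3.92 and 3.73 CPM to 6.21, 5.58 and 5.73 CPM (log2 fold change 0.65, SE 0.15, adjusted p = 0.00296). These 3 genes were higher in every enzalutamide library. HOXB13, a homeobox gene of the prostate lineage, had 319, 292 and 319 CPM and 386, 365 and 363 CPM and did not pass (adjusted p = 0.0835). Of 26 cofactor genes, 4 rose and 6 fell, again near the shares over all genes, and 2 rose without DHT library 1 (2 and 4) or enzalutamide library 2 (2 and 6). Among them, the coactivators NCOA3 (0.32) and NCOA2 (0.28) were higher, and the arginine methyltransferase PRMT5 (-0.29) and the histone methyltransferase EZH2 (-0.87) were lower. SIRT1, the gene targeted in the knockdown line, had 45.1, 51.7 and 49.9 CPM with DHT and 56.5, 58.3 and 62.2 CPM with enzalutamide (log2 fold change 0.26, SE 0.09, adjusted p = 0.0357), a call that was lost without DHT library 1 or 3 or without enzalutamide library 2 or 3, at log2 fold changes of 0.22 to 0.27.

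The androgen-repressed list moved in both directions. Of 45 tested members, 17 rose, 8 fell and 20 did not pass, with a median log2 fold change of 0.18. Of all genes 12.6% were higher and 16.6% lower, so the share of members that fell was near that over all genes. CAMK2N1, which encodes an inhibitor of calcium/calmodulin-dependent kinase II, went from 98.5, 123 and 121 CPM to 264, 233 and 235 CPM, a 2.12-fold rise (log2 fold change 1.08, SE 0.17, adjusted p = 0.00011). DDC, the aromatic amino acid decarboxylase gene, went from 54.7, 66.5 and 65.2 CPM to 109, 124 and 122 CPM (log2 fold change 0.91, SE 0.08, adjusted p = 1.89e-07). OPRK1, the kappa opioid receptor gene, went from 13.7, 15.9 and 19.8 CPM to 29.1, 29.6 and 38 CPM (log2 fold change 0.96, SE 0.15, adjusted p = 7.36e-05). In each of them the enzalutamide libraries were all above the DHT libraries. SI, IGFBP3, IL1RN and LRRN1 rose as well (log2 fold changes 1.03, 0.86, 0.80 and 1.09). The members that fell included GRIN3A, a glutamate receptor subunit gene, which went from 16.2, 14.3 and 12.9 CPM to 3.85, 3.02 and 2.79 CPM (log2 fold change -2.18, SE 0.17, adjusted p = 2.29e-08). CYP11A1, which encodes the enzyme that cleaves the cholesterol side chain, went from 2.82, 3.58 and 2.86 CPM to 0.199, 0.648 and 0.513 CPM (log2 fold change -2.80, SE 0.34, adjusted p = 4.76e-06). KCNMA1 and MAOA also fell (log2 fold changes -1.36 and -0.62), so for these genes the direction was the opposite of the list's name. UGT2B15, which glucuronidates androgens, rose (log2 fold change 0.52, adjusted p = 0.00261) while its relative UGT2B28 fell (log2 fold change -1.29, adjusted p = 2.37e-07), and reads may be shared between members of this family.

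Genes outside the lists gave the largest rises. With the same limits on level and overlap, the highest was MATN2, a matrix protein gene, which went from 1.64, 2.97 and 2.52 CPM to 7.35, 7.63 and 7.56 CPM, a 3.15-fold rise (log2 fold change 1.65, SE 0.22, adjusted p = 1.46e-05). DEGS2, which encodes a sphingolipid desaturase and hydroxylase, went from 0.455, 0.852 and 0.656 CPM to 1.42, 2.30 and 2.42 CPM (log2 fold change 1.63, SE 0.29, adjusted p = 0.000407), and CERK, the ceramide kinase gene, went from 2.58, 3.41 and 3.31 CPM to 7.41, 8.17 and 7.53 CPM (log2 fold change 1.30, SE 0.13, adjusted p = 5.92e-07). All enzalutamide libraries were above the DHT libraries in these genes. Others among the highest were VWA2 (1.53), CAMK1D (1.51), CNGA1 (1.51), LOC283070 (1.43), COL5A1 (1.40), MECOM (1.38), NDUFA4L2 (1.36) and MYOZ1 (1.29), as log2 fold changes. Of these, COL5A1 lost its call without DHT library 1 (log2 fold change then 1.13), and 1 other gene among the 12 highest is not described. NIPSNAP3A was among the 10 most abundant genes by TPM that changed at least 2-fold, and rose from 231, 284 and 284 CPM to 555, 546 and 540.1 CPM (log2 fold change 1.02, SE 0.08, adjusted p = 2.79e-08).

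Genes of the cell cycle showed the most uniform change. DNA replication begins when E2F factors activate the genes of nucleotide supply, origin licensing and the replication fork at the G1/S boundary, and a later programme at G2/M supplies the spindle, kinetochore and mitotic kinases. Of 57 G1/S genes tested, 56 fell and none rose, with a median log2 fold change of -1.46, and of 74 G2/M genes all 74 fell, with a median of -1.97. The background was 16.6% of all genes lower. In bulk RNA, fewer cycling cells and less RNA of these genes per cell cannot be told apart.

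G1/S genes summed to 4325, 4094 and 4342 CPM with DHT, to 1795, 1934 and 1955 CPM with enzalutamide and to 1932, 1974 and 2075 CPM with vehicle. PCNA, the sliding clamp of DNA polymerases, had 224, 212 and 237 CPM with DHT and 78.6, 95.7 and 91.9 CPM with enzalutamide, a 2.56-fold fall (log2 fold change -1.36, SE 0.07, adjusted p = 8.83e-10). TYMS, which encodes the thymidylate synthase that supplies dTMP, had 99.6, 97.3 and 111 CPM and 22.3, 30.4 and 29.5 CPM, a 3.80-fold fall (log2 fold change -1.93, SE 0.10, adjusted p = 8.83e-10). DHT libraries were all more than 2 times above the enzalutamide libraries in both genes. The E2F activators E2F1 and E2F2 fell 4.04-fold and 4.07-fold, the helicase subunit gene MCM2 fell 2.91-fold, and the ribonucleotide reductase subunit RRM2 had a log2 fold change of -2.39. CCND1, which encodes cyclin D1, was the member that did not pass, with 323, 271 and 275 CPM and 349, 278 and 283 CPM (log2 fold change 0.05, adjusted p = 0.797). CCND3, which encodes cyclin D3, fell (log2 fold change -0.38, adjusted p = 0.00865).

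The G2/M list summed to 4153, 4742 and 5191 CPM with DHT and to 1209, 1615 and 1632 CPM with enzalutamide, and vehicle libraries stood at 1528, 1882 and 1880 CPM. CDK1, the kinase that drives entry into mitosis, had 314, 342 and 357 CPM with DHT and 75.4, 110.4 and 104 CPM with enzalutamide, a 3.54-fold fall (log2 fold change -1.82, SE 0.12, adjusted p = 4.07e-09). MKI67, which encodes the proliferation marker Ki-67, had 170.3, 193 and 223 CPM and 30.8, 41.6 and 48.4 CPM, a 4.91-fold fall (log2 fold change -2.30, SE 0.18, adjusted p = 2.42e-08). ASPM, a spindle pole gene, had 35.6, 48.4 and 51 CPM and 6.01, 11.2 and 12.2 CPM, a 4.65-fold fall (log2 fold change -2.22, SE 0.21, adjusted p = 2.66e-07). No enzalutamide library reached any DHT library in these genes. Mitotic kinases fell alike, with log2 fold changes of -1.81 for AURKA, -2.17 for AURKB, -2.13 for PLK1 and -1.90 for BUB1. The smallest falls in the list were in BUB3 (-0.52) and CKAP2 (-0.52).

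Members of both lists moved together, and 4 of their promoters are shown as examples. They were picked for holding the marked letters and for large falls, so their matches were fixed by the choice. All are from RefSeq, GRCh38.p14, minus strand, the 200 bases before the start: MKI67 at chr10:128126424-128126623, ASPM at chr1:197146670-197146869, E2F2 at chr1:23531234-23531433 and E2F1 at chr20:33686386-33686585. In MKI67 and ASPM the capitals mark matches on either strand to CCAAT, the CCAAT box, and to TTTGAA, the letters of the cell cycle homology region. In E2F2 and E2F1 the capitals mark TTTCGCG, the letters of an E2F site.
MKI67: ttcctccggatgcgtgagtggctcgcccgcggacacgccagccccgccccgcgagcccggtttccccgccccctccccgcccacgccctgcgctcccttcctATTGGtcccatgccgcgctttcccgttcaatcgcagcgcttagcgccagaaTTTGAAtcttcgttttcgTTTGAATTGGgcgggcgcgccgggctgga
ASPM: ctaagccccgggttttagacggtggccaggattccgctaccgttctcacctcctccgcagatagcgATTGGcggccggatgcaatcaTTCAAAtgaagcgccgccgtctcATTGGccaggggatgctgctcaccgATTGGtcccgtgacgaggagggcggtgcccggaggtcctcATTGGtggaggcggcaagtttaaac
E2F2: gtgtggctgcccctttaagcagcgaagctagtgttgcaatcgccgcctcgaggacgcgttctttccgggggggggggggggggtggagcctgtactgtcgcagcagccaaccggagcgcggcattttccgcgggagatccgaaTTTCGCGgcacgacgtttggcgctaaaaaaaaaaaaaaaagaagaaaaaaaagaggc
E2F1: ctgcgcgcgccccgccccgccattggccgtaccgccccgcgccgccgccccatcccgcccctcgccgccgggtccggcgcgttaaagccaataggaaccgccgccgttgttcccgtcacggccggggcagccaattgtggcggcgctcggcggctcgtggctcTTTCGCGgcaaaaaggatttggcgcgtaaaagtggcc
In MKI67 the last TTTGAA and the last CCAAT match overlap. Of the 78 windows of 63 G2/M genes, 61.5% held TTTGAA, 70.5% held CCAAT and 48.7% held both. Of all 35116 windows of the same length, 15.2% held TTTGAA, 34.6% held CCAAT and 5.90% held both. TTTCGCG was present in 16.9% of the 65 windows of 47 G1/S genes and in 1.32% of all windows. These shares describe the letters of the windows and say nothing of binding.

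**Figure D3:**
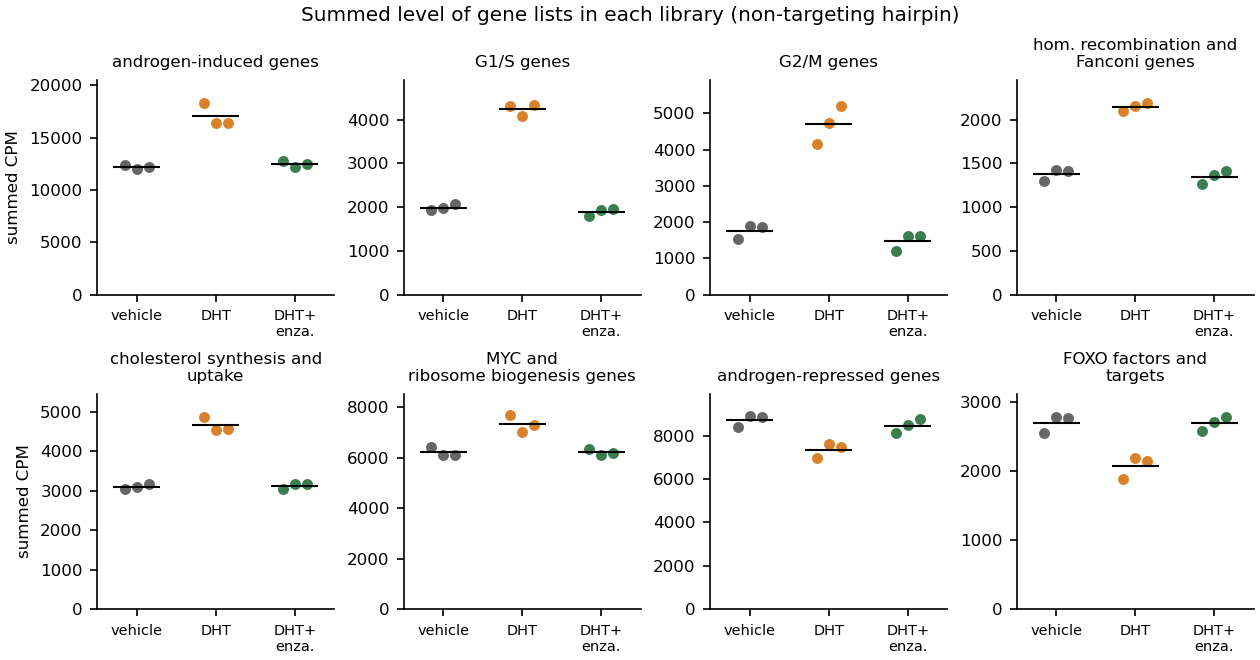
Summed level in CPM (y axis, from 0) of 8 gene lists in each NTC library, by treatment (x axis). Points are libraries and horizontal lines are means of 3. The G1/S sum is 4094 to 4342 CPM with DHT and 1795 to 1955 CPM with enzalutamide, while sums of the androgen-repressed and FOXO lists lie higher with enzalutamide than with DHT.

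Genes of homologous recombination and the Fanconi pathway, which repair double-strand breaks and crosslinks, were lower too. Of 45 tested, 38 fell, none rose and 7 did not pass, against 16.6% of all genes lower. The median log2 fold change was -0.95. BRCA1, which organises repair of double-strand breaks, had 84.9, 77.2 and 82.8 CPM with DHT and 15.7, 20.7 and 21.7 CPM with enzalutamide, a 4.27-fold fall (log2 fold change -2.10, SE 0.14, adjusted p = 4.53e-09). BRCA2, which acts with it in recombination, had 38, 37.2 and 41.7 CPM and 7.15, 9.78 and 11.6 CPM, a 4.15-fold fall (log2 fold change -2.05, SE 0.18, adjusted p = 1.07e-07), and FANCI fell 3.41-fold. DHT libraries of these genes lay far above all others. The 7 members that did not pass were NBN, SLX4, RAD50, BARD1, FANCF, ATM and MUS81, with log2 fold changes between -0.18 (NBN) and 0.10 (MUS81), named after their values were seen. PARP1 and PARP2, which encode the poly(ADP-ribose) polymerases that sense DNA breaks, had 492, 472 and 480.3 CPM with DHT against 328, 297 and 311 CPM with enzalutamide (log2 fold change -0.64, adjusted p = 1.51e-06) and stood at 56.9 ± 1.39 against 30.9 ± 2.27 CPM (log2 fold change -0.90, adjusted p = 1.28e-08), respectively.

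Of 22 CDK inhibitors, pocket proteins and related genes, 5 rose, 7 fell and 10 did not pass, where 12.6% of all genes were higher and 16.6% lower. CDKN1A, which encodes p21, had 169.6, 212 and 189.9 CPM with DHT and 247, 286 and 252 CPM with enzalutamide (log2 fold change 0.44, SE 0.14, adjusted p = 0.0264). CDKN1B, which encodes p27, had 62.6, 70.1 and 73.2 CPM and 83.3, 81.6 and 79.7 CPM (log2 fold change 0.23, SE 0.06, adjusted p = 0.00413), and the cyclin gene CCNG2 also rose (log2 fold change 0.44, adjusted p = 0.000739). Every enzalutamide library was above the DHT libraries in CDKN1A and CDKN1B. CDKN1A lost its call without DHT library 1 or 3 or enzalutamide library 2 (log2 fold change then 0.38 to 0.44), and without DHT library 3 the list had 3 members higher and 7 lower. CDKN2C, which encodes p18, fell (log2 fold change -1.17, adjusted p = 2.68e-07), as did the pocket protein gene RBL1 (log2 fold change -0.88, adjusted p = 1.74e-06), and RB1 had a log2 fold change of -0.08 (adjusted p = 0.415). Among chromatin and DNA methylation enzymes 8 of 28 rose and 10 fell, against the same background. The maintenance methyltransferase gene DNMT1 went from 156, 155 and 166 CPM to 73.7, 76.8 and 80.6 CPM (log2 fold change -1.06, SE 0.06, adjusted p = 9.57e-10), and its partner UHRF1 fell 3.38-fold, while the histone demethylase gene KDM5B rose (log2 fold change 0.46, adjusted p = 6.54e-06).

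Genes of ribosome assembly fell by small amounts. Of 46 MYC and ribosome biogenesis genes, 34 fell, 3 rose (MXI1, MXD4 and POLR1D) and 9 did not pass, with a median log2 fold change of -0.29. Without DHT library 1, 25 fell and 1 rose, and over all genes in the main fit 16.6% were lower and 12.6% higher. The sum of the list was 7675, 7020.2 and 7291 CPM with DHT and 6345, 6119.7 and 6189.8 CPM with enzalutamide, without overlap. NOP56, a core protein of box C/D ribonucleoproteins that modify ribosomal RNA, had 233, 229 and 238 CPM and 145, 161 and 164 CPM (log2 fold change -0.59, SE 0.05, adjusted p = 1.24e-07), and LYAR, a nucleolar zinc finger gene, fell 1.99-fold. All enzalutamide libraries were below the DHT libraries in NOP56. MYC itself had 196, 192 and 207 CPM and 154, 163 and 172 CPM (log2 fold change -0.30, SE 0.09, adjusted p = 0.0158), and lost its call without DHT library 1 or 3 or enzalutamide library 1 or 2, at log2 fold changes of -0.27 to -0.29.

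Lipid synthesis genes were lower with enzalutamide, to be read beside 16.6% of all genes lower and 12.6% higher. Cells make cholesterol through the mevalonate pathway under control of SREBP factors, and also take it up from lipoproteins. Of 32 genes of cholesterol synthesis and uptake, 25 fell, 4 rose and 3 did not pass, with a median log2 fold change of -0.38, and of 32 fatty acid and lipid synthesis genes 17 fell, 1 rose (3 in the fit blocked on replicate number) and 14 did not pass, with a median of -0.26. FDPS, the farnesyl diphosphate synthase gene, had 151, 144 and 149 CPM with DHT and 88.3, 92.4 and 90.8 CPM with enzalutamide, a 1.66-fold fall (log2 fold change -0.73, SE 0.05, adjusted p = 4.11e-09). EBP, which encodes a sterol isomerase of the late pathway, had 58.1, 55.8 and 59.9 CPM and 26.1, 31.1 and 29.1 CPM (log2 fold change -1.03, SE 0.08, adjusted p = 2.09e-08). The DHT and enzalutamide libraries did not overlap in either gene. The 4 members that rose were ABCA1 and ABCG1, which export cholesterol (0.74 and 0.74), the SREBP retention factor INSIG2 (0.46) and the sterol reductase TM7SF2 (0.45). In all 4 of them the DHT libraries were the lowest.

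In fatty acid synthesis, ELOVL5, an elongase of polyunsaturated fatty acids, had 841, 719 and 691 CPM with DHT and 260.1, 285 and 289 CPM with enzalutamide, a 2.74-fold fall (log2 fold change -1.45, SE 0.11, adjusted p = 2.8e-08). FASN, the fatty acid synthase gene, had 1357, 1166 and 1181 CPM and 756, 724 and 764 CPM, a 1.67-fold fall (log2 fold change -0.74, SE 0.10, adjusted p = 1.49e-05). ELOVL7 fell 2.43-fold, and the desaturases FADS1 and FADS2 fell 1.55-fold and 1.54-fold. ACSL4, which activates arachidonic acid, was the 1 member that rose (log2 fold change 0.52, adjusted p = 0.0459), a call lost without DHT library 1 or 2 or without any enzalutamide library, and SREBF1, the gene of the regulator SREBP-1, did not pass (log2 fold change -0.12, adjusted p = 0.261). Of 30 fatty acid oxidation genes 7 were higher and 5 lower, against 12.6% and 16.6% of all genes, and 4 were higher without DHT library 3 or without enzalutamide library 1. Of 16 genes on the polyamine list 3 were higher and 5 lower, among them the methyltransferase GNMT, which fell 3.18-fold. ANTXR1, a receptor gene on that list rather than an enzyme of the pathway, rose 2.12-fold. Of 33 glycosylation and nucleotide sugar genes 6 rose and 8 fell, or 9 and 15 in the fit blocked on replicate number, and UAP1, which makes UDP-N-acetylglucosamine, went from 199, 143 and 154 CPM to 111, 94.9 and 97.8 CPM (log2 fold change -0.73, SE 0.14, adjusted p = 0.000801).

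Genes of the FOXO factors and their targets, which respond when insulin and AKT signalling is low, rose in part. Of 25 tested, 14 rose, none fell and 11 did not pass, with a median log2 fold change of 0.24, and the background was 12.6% of all genes higher. FOXO3 had 257, 303 and 303 CPM with DHT and 392, 420.1 and 427 CPM with enzalutamide (log2 fold change 0.51, SE 0.06, adjusted p = 7.69e-06). PIK3IP1, which encodes an inhibitor of PI3 kinase, had 24.9, 28.8 and 28 CPM and 46.6, 49.4 and 47.3 CPM, a 1.74-fold rise (log2 fold change 0.80, SE 0.08, adjusted p = 2.42e-07). TXNIP, the thioredoxin-interacting protein gene, had 247, 281 and 291 CPM and 368, 362 and 389 CPM (log2 fold change 0.43, SE 0.07, adjusted p = 0.00017). In these 3 genes no DHT library reached an enzalutamide library. FOXO1 did not pass (log2 fold change 0.12, adjusted p = 0.571).

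Autophagy and lysosome genes rose in 14 of 49 and fell in 3, with a median log2 fold change of 0.12, and in the fit blocked on replicate number 23 rose and 3 fell. Over all genes 12.6% were higher and 16.6% lower in the main fit. MAP1LC3B, which encodes an LC3 protein of the autophagosome membrane, had 60.5, 69.1 and 60.1 CPM with DHT and 81.8, 84.5 and 86.5 CPM with enzalutamide (log2 fold change 0.40, SE 0.06, adjusted p = 8.82e-05). SQSTM1, which encodes the autophagy receptor p62, had 669.8, 999 and 933 CPM and 1258, 1606 and 1445 CPM (log2 fold change 0.71, SE 0.19, adjusted p = 0.00941). Both were higher in all enzalutamide libraries, and SQSTM1 lost its call without DHT library 1. Antigen presentation genes rose in 8 of 18 and fell in 1 (TAP2, -0.37), with a median of 0.33, and without DHT library 3 these counts were 5 and 1. Without DHT library 1 they were 6 and 2, and in the fit blocked on replicate number 10 and 2.

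Stress and p53 genes gave smaller counts, to be read beside 12.6% of all genes higher and 16.6% lower. Of 35 integrated stress response genes 9 rose and none fell, and in the fit blocked on replicate number 14 rose and 2 fell. ATF4, the factor of this response, had 321, 322 and 339.6 CPM with DHT and 475, 409 and 397 CPM with enzalutamide (log2 fold change 0.37, SE 0.08, adjusted p = 0.00254). Library 1 with enzalutamide was the highest for ATF4, and the list summed to 7252, 5659 and 5576 CPM with enzalutamide against 5654, 5263 and 5308 CPM with DHT. Without enzalutamide library 1, 7 of these genes rose and 2 fell, and without any library numbered 1, 10 rose and 2 fell. Of 29 p53 targets 10 rose and 3 fell (6 and 3 without enzalutamide library 2), among them TP53INP1, which had 417, 488 and 433 CPM and 596, 644 and 644 CPM (log2 fold change 0.48, SE 0.08, adjusted p = 0.000115), and FAS, the death receptor gene, which fell (log2 fold change -0.63, adjusted p = 4.08e-05). Of 47 unfolded protein response and secretory genes 3 rose and 6 fell, but with upper-quartile factors 8 rose and 4 fell, and in the fit blocked on replicate number 9 rose and 13 fell, so no direction was given by this list. Leaving out enzalutamide library 2 or 3 or DHT library 1 left 2 or 3 of them lower. The chaperone gene HSPA5 rose (log2 fold change 0.29, adjusted p = 0.000722) and the disulfide isomerase gene PDIA5 fell (log2 fold change -0.71, adjusted p = 1.64e-05).

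Other lists are set beside the shares over all genes (12.6% higher and 16.6% lower). Of 56 cytosolic ribosomal protein genes 2 rose and none fell, and of 42 respiratory chain genes none rose and 2 fell. Of 22 NF-kappa B genes 6 rose and none fell, and of 21 replication-dependent histone genes 2 rose and 1 fell. In the fit blocked on replicate number 6, 0, 8 and 8 rose and 0, 4, 1 and 1 fell, in that order. The interferon and growth factor lists were near the shares over all genes. Interferon-stimulated genes rose in 8 of 49 and fell in 7, and rose in 5 without DHT library 1 or 3 or enzalutamide library 1. OAS3, a sensor of double-stranded RNA on this list, fell 3.12-fold from 43 ± 4.21 to 14 ± 1.42 CPM. Of 37 neuroendocrine and neuronal genes 15 passed the filter on low counts. Of these 15, 6 rose, or 4 without DHT library 2 or 3 or enzalutamide library 1 or 3. Of the same 15, 1 fell, or 2 in the fit blocked on replicate number. Among them ENO2, the neuronal enolase gene, had 16, 22.7 and 18.9 CPM with DHT and 29.1, 33.1 and 32.2 CPM with enzalutamide (log2 fold change 0.70, SE 0.11, adjusted p = 0.000103), and SYP, which encodes synaptophysin, did not pass (log2 fold change -0.03, adjusted p = 0.934). Growth factor signalling genes rose in 6 of 35 and fell in 4. The receptor gene IGF1R had 22.7, 19.9 and 20.1 CPM and 15.3, 13.3 and 16.6 CPM and was lower (log2 fold change -0.49, adjusted p = 0.00371), while ERBB2 was higher (log2 fold change 0.27, adjusted p = 0.00163).

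**Figure D4:**
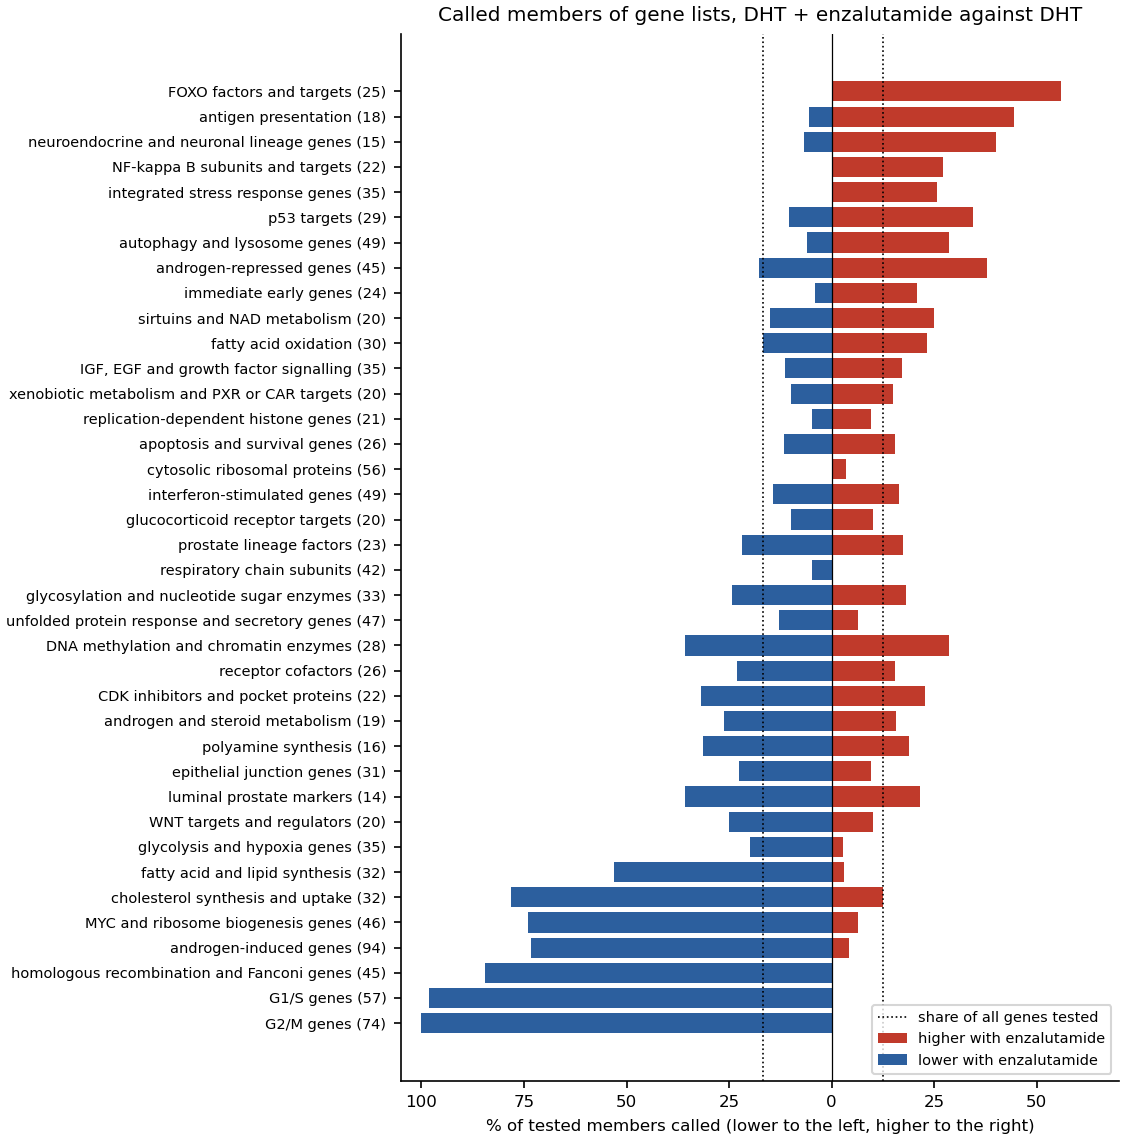
Share of the tested members of each gene list that were called higher (red, to the right) or lower (blue, to the left) with DHT plus enzalutamide against DHT, in percent of tested members (x axis), for lists with at least 14 tested members (number in brackets). Dotted lines mark the shares over all genes, 12.6% higher and 16.6% lower. G2/M and G1/S genes reach furthest to the left and FOXO genes furthest to the right.

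Against vehicle, the same enzalutamide libraries gave no called gene. With DHT plus enzalutamide, 0 of 14558 genes passed by edgeR (0%), and 453 genes (3.11%) had an unadjusted p under 0.05. In the edgeR fit blocked on replicate number 1103 genes had an unadjusted p under 0.05, and again none passed. DESeq2 also called 0 genes. This comparison shares the enzalutamide libraries with the one above, so the values are set side by side only. DHT alone changed 4352 genes against vehicle (29.9%), and it shares libraries with both. The median half-width of the 95% interval of a log2 fold change was 0.188, and for 13332 genes (91.6%) the whole interval lay within a 2-fold change. For 435 of the 561 genes that changed at least 2-fold against DHT, the interval against vehicle lay within a 2-fold change, which does not show that the levels were equal.

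Some androgen targets stood above vehicle without passing the adjustment. KLK3 had 23.9, 23.7 and 27.8 CPM with vehicle and 30.5, 41.9 and 44.4 CPM with DHT plus enzalutamide, groups that did not overlap (log2 difference 0.63, 95% interval 0.33 to 0.93, unadjusted p = 0.000353, adjusted p = 1). KLK4 had 25.7, 24.6 and 28.1 CPM and 34, 37.2 and 37.2 CPM (log2 difference 0.47, interval 0.24 to 0.69, unadjusted p = 0.000376). KLK2 had 7.67, 5 and 7.43 CPM and 10, 12.1 and 11.7 CPM (log2 difference 0.74, interval 0.31 to 1.17). All 3 kallikreins were thus higher in each enzalutamide library than in each vehicle library, yet far below the DHT libraries. Against vehicle, the 94 tested androgen-induced genes had a median log2 difference of 0.0308, and 0 were called. The share of all genes without overlap between the vehicle and enzalutamide groups was not counted. FKBP5 overlapped between these groups (log2 difference -0.03, interval -0.27 to 0.21). CDK1 had a log2 difference of -0.31 (interval -0.55 to -0.07, unadjusted p = 0.0148), and the G2/M list had a median of -0.29 against vehicle with 0 of 74 genes called.

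The knockdown line gives the same contrast in other libraries, which belong to neither group of the NTC contrast but entered the same fit, with its filter and estimate of spread. SIRT1 stood at 15.5 ± 2.53 CPM with DHT and 19.9 ± 2.24 CPM with DHT plus enzalutamide in that line, against 48.9 ± 3.40 and 59 ± 2.94 CPM in NTC cells (mean ± SD, n = 3). There, enzalutamide changed 2949 genes (20.3%), 1177 higher (8.08%) and 1772 lower (12.2%), or 4811 in the fit blocked on replicate number. Of the 4252 genes called in NTC cells, 3922 (92.2%) had a log2 fold change of the same sign in knockdown cells, whatever its size. The share with the same sign over all tested genes was not counted. The genes called in both with the same direction numbered 2102, which is 49.4% of the NTC calls and 71.3% of the knockdown calls, and 5 genes were called in opposite directions. KLK3, FKBP5 and ST6GALNAC1 had log2 fold changes of -2.87, -0.88 and -3.43 there, beside -2.60, -0.98 and -3.47 in NTC cells.

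The difference between the lines was tested as an interaction, and 51 of 14558 genes passed (0.35%): 12 had a higher (0.0824%) and 39 a lower (0.268%) log2 fold change in NTC cells. Among them were 7 of the 57 G1/S genes, 3 of the 45 recombination genes and 1 of the 74 G2/M genes, all lower. PRIM1, the catalytic subunit gene of DNA primase, had a log2 fold change of -1.44 in NTC cells and -0.67 in knockdown cells (difference -0.77, adjusted p = 0.00527). Its level with DHT was 31.1 ± 1.76 CPM in NTC and 14.5 ± 0.966 CPM in knockdown cells, and with enzalutamide 11.6 ± 0.829 and 9.17 ± 0.370 CPM. PCNA, a G1/S gene too, had a log2 fold change of -1.36 in NTC and -0.75 in knockdown cells (difference -0.61, adjusted p = 0.0102), and its level with DHT was 224 ± 12.7 against 125 ± 8.80 CPM. KLK4 went the other way, with -1.52 in NTC and -2.42 in knockdown cells (difference 0.90, adjusted p = 0.0102). Each hairpin is represented by 1 line, so the hairpin and the line cannot be told apart. The count of 51 ranged from 16 without NTC DHT library 3 to 176 without knockdown DHT library 2, and was 812 in the fit blocked on replicate number.

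**Figure D5:**
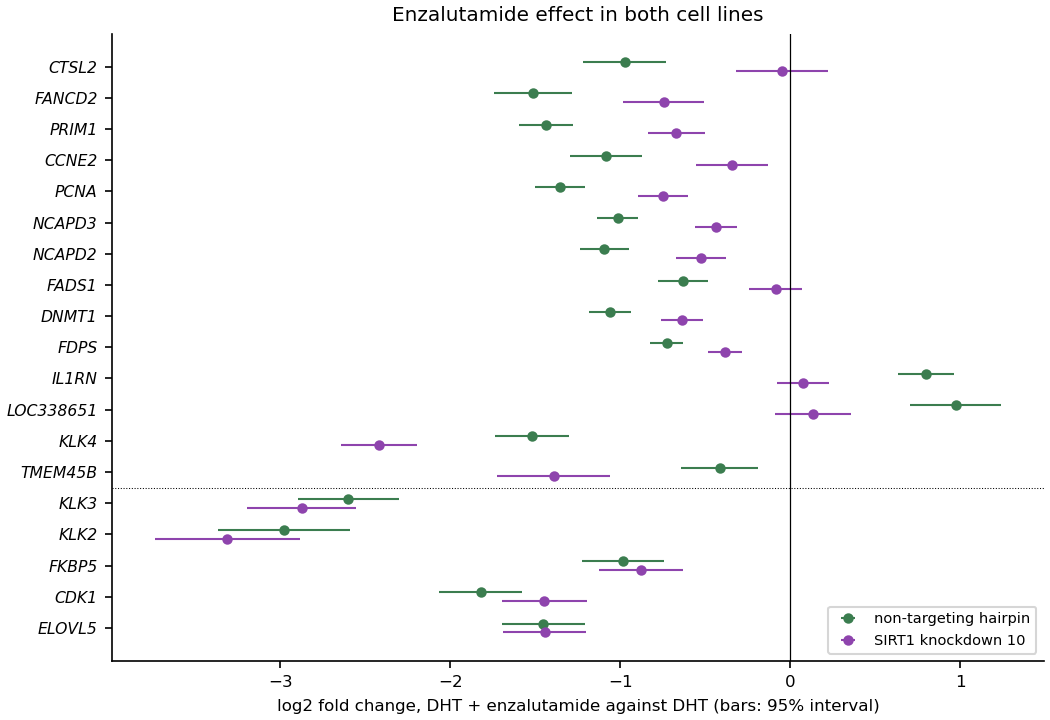
Log2 fold change of DHT plus enzalutamide against DHT (x axis) for 19 genes (y axis) in NTC cells (green) and in the SIRT1 knockdown line 10 (purple). Points are fitted values with 95% intervals (3 libraries per group), and the 14 genes above the dotted line passed the test of a difference between the lines. The intervals of KLK3 and of FKBP5 overlap between the lines, while PRIM1 lies at -1.44 in NTC and -0.67 in knockdown cells.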

How the data were processed

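RNA was extracted with TRIzol and about 500 ng made into stranded poly(A) libraries with the TruSeq kit, per the labels' protocols. The deposited tables, 1 per library, hold RSEM's expected counts and TPM per gene. CASAVA 1.8.2, RSEM 1.2.31 and the hg19 genome are named in the submitters' processing notes, and the aligner is not given in the sources used here. Expected counts, which the authors estimated by dividing reads among genes that share sequence, were rounded to whole numbers here. TPM values, as deposited, served for marker levels and for an alternative test.

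All 18 stripped-serum libraries were fitted together (edgeR 4.0.16, R 4.3.3), with TMM factors (0.9692 to 1.014), filterByExpr and 1 coefficient per group. The quasi-likelihood F test was used, adjusted by Benjamini-Hochberg over 14558 genes, and the biological coefficient of variation was 7.79%. The SE is the log2 fold change divided by the root of F, and intervals cover 95%. The 6 libraries grown in fetal bovine serum were not used here. Library totals of 25236353 counts or more over the 18 libraries limit precision at low levels, and the filter kept at least 99.97% of counts.

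The contrast, the 43 gene lists and the genes described were chosen with earlier results of these data known. Named genes are SIRT1 and 4 androgen targets, the 12 highest and 12 lowest changes (average log2 CPM at least 1, no overlap), the 10 most abundant with a 2-fold change, up to 6 called members per list with the lowest adjusted p plus members whose role is described, and genes whose effect differed between the lines, and some genes are not reported here. Same-numbered DHT and enzalutamide libraries deviated together (correlations 0.361, 0.186 and 0.112 in NTC cells, 0.276, 0.168 and 0.166 in knockdown cells). In NTC cells DHT library 2 and enzalutamide library 3 correlated at 0.126, so a pairing by number is likely but not settled. The pairing comes from the numbers in the titles. Alternatives were a replicate block, DESeq2 1.42.0, limma 3.58.1 on log2(TPM + 1) and log2(TPM + 0.1), other factors, filters and sample sets, and each library left out. On simulated counts for 14407 genes of this contrast the test recovered 32, 76, 78 and 96% of 50 genes each changed 1.25-, 1.5-, 2- and 4-fold, with 10 false calls of 151. The simulation changed far fewer genes than were called in the data, and the adjustment depends on that share. These rates may therefore not hold for the reported counts. Promoter windows came from RefSeq (GRCh38.p14), matched by symbol, and no coordinates were carried between builds.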

Additional observations from a re-analysis of the deposited data

Results flagged for a closer look

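The effect of enzalutamide differed between NTC and SIRT1 knockdown cells, by the interaction test in edgeR with Benjamini-Hochberg adjustment, for 14 of the genes named by the rule. All 14 are given as the log2 fold change in NTC cells minus that in knockdown cells, and no explanation was tested. Among genes of replication and chromosome structure the differences were -0.77 for PRIM1 (adjusted p = 0.00527), -0.61 for PCNA (adjusted p = 0.0102), -0.74 for the cyclin gene CCNE2 (adjusted p = 0.033), -0.77 for FANCD2 of the Fanconi pathway (adjusted p = 0.0382) and -0.42 for DNMT1 (adjusted p = 0.033). The condensin genes NCAPD3 and NCAPD2 differed by -0.58 (adjusted p = 0.00527) and -0.57 (adjusted p = 0.0161). CCNE2, for example, had log2 fold changes of -1.08 and -0.34, with 53.8 ± 2.38 CPM in NTC and 36.7 ± 6.66 CPM in knockdown cells under DHT (mean ± SD, n = 3).

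Lipid genes with a difference were the desaturase FADS1 (-0.54, adjusted p = 0.0313) and FDPS (-0.34, adjusted p = 0.033). FADS1 had 136 ± 7.17 CPM with DHT and 89.2 ± 4.50 CPM with enzalutamide in NTC cells, and 42.2 ± 4.23 and 40 ± 2 CPM in knockdown cells. The protease gene CTSL2 differed by -0.93 (adjusted p = 0.0313), with log2 fold changes of -0.98 and -0.05.

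Differences in the other direction were 0.73 for IL1RN, which encodes the interleukin-1 receptor antagonist (adjusted p = 0.00527), 0.84 for LOC338651 (adjusted p = 0.0338), 0.9 for KLK4 (adjusted p = 0.0102) and 0.98 for TMEM45B (adjusted p = 0.0331). IL1RN rose in NTC cells from 19.7 ± 0.397 to 34.8 ± 3.31 CPM, and had 68 ± 1.53 and 72.1 ± 4.72 CPM in knockdown cells. KLK4 had 102 ± 6.29 and 36.1 ± 1.83 CPM in NTC cells and 156 ± 29.6 and 29.4 ± 0.828 CPM in knockdown cells.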

How the results depend on the processing

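The count of 4252 genes changed by enzalutamide in NTC cells was 1279 when tested against a 1.2-fold change (edgeR's glmTreat), 4261 with DESeq2, 3967 without the filter on low counts, and 3171 or 3220 with limma on log2 TPM plus 0.1 or 1. It was 4464 with the 6 libraries alone, 4717 with the 9 NTC libraries and 4698 with upper-quartile factors, and ranged from 3064 (without DHT library 1) to 3875 (without DHT library 2) when 1 library was left out. With the replicate number as a block, which the correlations favoured without settling it, it was 6140 (2885 higher and 3255 lower), and 6287 with the 6 libraries alone. The paired fit called 4811 genes in knockdown cells and 812 for the difference between the lines. Among list counts of 5 or more, it moved 5 by over 1.5 times, the higher counts of autophagy (14 to 23) and integrated stress response genes (9 to 14) and the lower counts of glycosylation (8 to 15), unfolded protein response (6 to 13) and glycolysis genes (7 to 12). Smaller list counts moved as well, and no named gene lost its call under it. Without any library numbered 1, an alternative chosen after seeing the data, 3443 genes were called, 3120 of them among the 4252. Of the 4252, 2325 were called in every fit other than glmTreat, none reversed, and 51 of 266 called named genes lost their call at least once. The 51 genes for the difference between the lines became 245 with DESeq2 and 16 to 176 when 1 library was left out, so this count rests on single libraries. The knockdown count of 2949 ranged from 2069 to 3622. No gene passed against vehicle with edgeR under either other scaling, without the filter, with the block, with 1 library left out or without library 1, nor with DESeq2, and the other fits were not run for it. Same-numbered vehicle and enzalutamide libraries of NTC cells correlated at 0.378, 0.0956 and 0.111. Vehicle library 2 and enzalutamide library 3 correlated at 0.205, so a pairing by number was not settled there either. Without library 1, 27 ribosome biogenesis genes were lower and 2 higher, against 34 and 3. Genes at low levels and changes under 1.5-fold are where depth and 3 libraries limit detection.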

Other observations

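A few genes are given that were among those with the lowest unadjusted p-values in DHT plus enzalutamide against vehicle. None of them passed the adjustment over all genes (adjusted p = 1 for each, edgeR). They were taken from the top of that list after their values were seen. PYGL, which encodes liver glycogen phosphorylase, had a mean of 7.88 CPM with vehicle, 10.8 CPM with DHT plus enzalutamide and 10.6 CPM with DHT (log2 difference from vehicle 0.45, 95% interval 0.25 to 0.66). BAMBI, which encodes a pseudoreceptor of TGF-beta signalling, had 46 CPM with vehicle, 46.1 CPM with DHT and 57.4 CPM with DHT plus enzalutamide (log2 difference from vehicle 0.32, interval 0.16 to 0.48). LRRC31 had 9.94 CPM with vehicle, 3.50 CPM with DHT and 6.39 CPM with enzalutamide (log2 difference from vehicle -0.64, interval -0.93 to -0.35). SOX9 and NDUFA4L2, both higher with enzalutamide than with DHT in NTC cells, had log2 fold changes of -0.05 and 0.12 in knockdown cells, and against vehicle 0.49 and 1.00 in NTC cells. The adjusted p of the difference between the lines was 0.18 for SOX9 and 0.227 for NDUFA4L2, so a difference between the lines was not shown for either.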
